A study of Homo sapiens with 2 samples.

Results

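The genes described here encode proteins, or subunits of proteins, measured in blood to diagnose and follow germ cell tumours, and related alkaline phosphatases. The whole list is called the serum marker genes below, although among the phosphatases the placental type is the marker. They comprise the alkaline phosphatases ALPL, ALPP, ALPG and ALPI, alpha-fetoprotein (AFP), the human chorionic gonadotropin (hCG) subunits CGA, CGB3 and CGB5, and the lactate dehydrogenase subunits LDHA and LDHB. They were listed by symbol and matched to Ensembl identifiers, and all 10 were found among the 62700 genes of the gene table. Polyadenylated RNA had been sequenced from TCam-2, an established human cell line that models seminoma, a kind of testicular germ cell tumour. Both libraries came from cells transduced to overexpress DDX53-FLAG, a tagged DEAD-box RNA helicase, and they are the 2 replicates of 1 group. The labels do not say whether the replicates were separate transductions, so their spread may be technical. The GFP-FLAG and untransduced control cells of the study were not analysed here, and no value below is a change caused by DDX53.

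Placental-type alkaline phosphatase is the classical serum marker of seminoma, and the tissue-nonspecific enzyme ALPL is the alkaline phosphatase by which primordial germ cells are stained. AFP is secreted by yolk sac elements and is not made by pure seminoma. hCG is a dimer of an alpha subunit, shared with the pituitary glycoprotein hormones, and a beta subunit that gives it its identity. Syncytiotrophoblast cells secrete it, and they are found scattered in some seminomas. Lactate dehydrogenase interconverts pyruvate and lactate as a tetramer of A and B subunits, and the enzyme in serum is a measure of tumour mass.

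Gene counts summed to 24137664 reads for replicate 1 and to 22198929 for replicate 2. Levels are given as CPM, a gene's reads relative to all reads in genes and not divided by gene length, with 95% Wilson intervals that cover counting error only. DDX53 itself had 146 and 147 reads (6.05 and 6.62 CPM), which do not tell the construct from the endogenous gene. All 9 seminoma markers examined reached 1 CPM in both libraries, from KIT at 67.7 and 68.1 CPM to POU5F1 at 1891 and 1921 CPM, a gene with near-identical pseudogenes. The blood cell markers PTPRC and CD3E had no read.

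At least 1 CPM in both libraries, the level taken as detection, was reached by 6 of the 10 serum marker genes, against 21.7% of all genes in the table. ALPL and LDHA received the most reads, at 427 to 473 CPM. LDHB, CGA, ALPG and ALPP were detected with far fewer reads. AFP and CGB3 had no read in either library, and ALPI and CGB5 had 1 read each over both libraries. For a count of 0 a limit of 3 reads was used, or 0.124 CPM (replicate 1) and 0.135 CPM (replicate 2). The two-sided Wilson interval of such a count reaches higher, to 0.159 and 0.173 CPM.

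**Figure D1:**
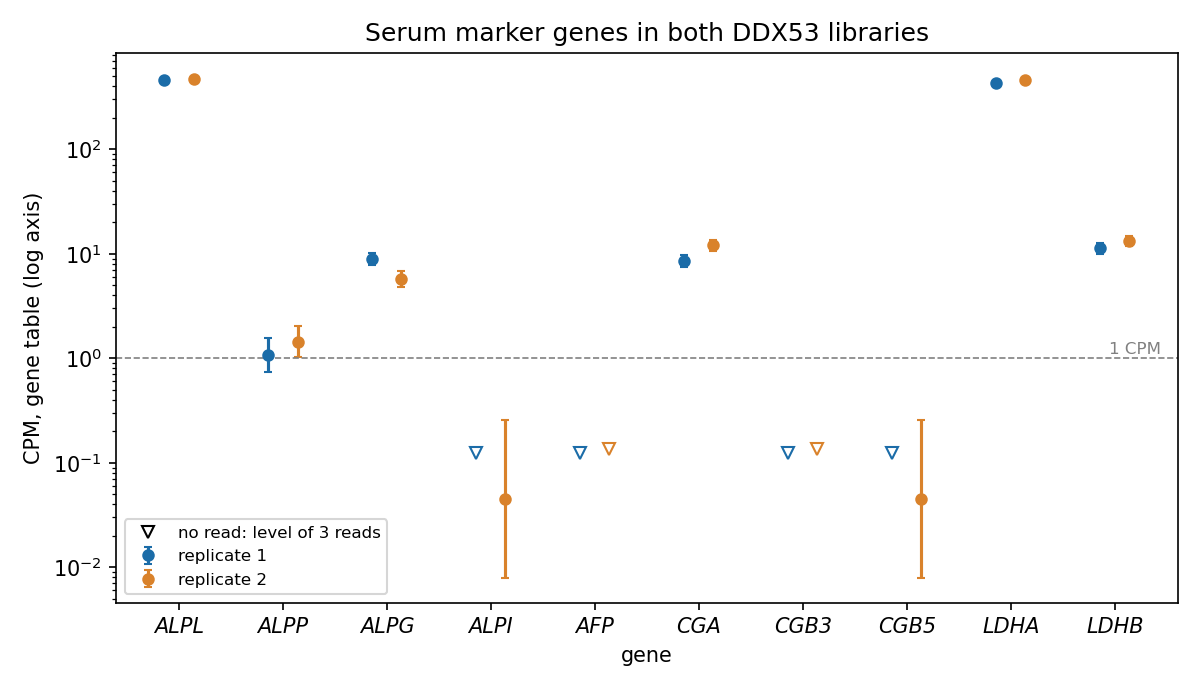
CPM of each serum marker gene (log axis) in replicate 1 (blue) and replicate 2 (orange), with bars for the 95% Wilson interval. Open triangles stand at the level of 3 reads where a library had no read, and the dashed line marks the detection level of 1 CPM. The points of ALPL and LDHA lie between 427 and 473 CPM, and ALPI, AFP, CGB3 and CGB5 lie below the line.

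ALPL (ENSG00000162551.14; chromosome 1, 21509372 to 21578412, plus strand, GRCh38) was the dominant alkaline phosphatase gene. It received 11225 reads in replicate 1, or 465 CPM (95% interval from 457 to 474). In replicate 2 it received 10490, or 473 CPM (464 to 482). The intervals of the libraries overlapped. On the scale of TPM, which divides by transcript length and so allows genes to be compared, ALPL stood at 258 and 267 TPM. Its mean was 263 ± 6.43 TPM (SD, n = 2), and 95.9% of genes at 1 TPM or more in each library had a lower mean. It made up 97.6% of the summed TPM of the 4 phosphatase genes in replicate 1 and 98.4% in replicate 2 (mean 98.0% ± 0.588, SD, n = 2).

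The TPM of ALPL fell almost wholly on transcripts annotated from 1 start. The 4 annotated transcripts whose 5′ ends lie between 21509372 and 21509428 held 99.7% of ALPL TPM in replicate 1 and 98.1% in replicate 2. ALPL-204, a coding transcript of 12 exons and 2589 bases, alone held 97.1% ± 0.622 (SD, n = 2). The transcript that starts downstream at 21551279 had 0 and 0.109 TPM. RefSeq (GRCh38.p14) places a start at 21509423, and the bases just before it are shown because most ALPL TPM falls on transcripts from this start. The 30 bases end 12 bases before it, and capitals mark TATAAA, the TATA element, read on the opposite strand. GENCODE 29 draws ALPL-204 from further upstream, so the stretch lies in its first exon.
ALPL, chr1:21509382-21509411, plus strand: cccgcggccgccTTTATAaggcggcggggg
The letters TATAAA, on either strand, occur in the 250 bases before 10.7% of all 35116 RefSeq starts. The windows before the other RefSeq starts of ALPL, at 21508984 and 21551270, did not hold them.

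The placental-type genes ALPG (ENSG00000163286.9) and ALPP (ENSG00000163283.7) were far lower than ALPL and unequal to each other. They lie in tandem on the plus strand of chromosome 2, ALPP from 232378534 to 232382889 and ALPG from 232406843 to 232410714, with the intestinal gene ALPI downstream from 232456123 to 232460032. ALPG, the germ cell form of the placental enzyme, had 217 reads in replicate 1, or 8.99 CPM (95% interval from 7.87 to 10.3). In replicate 2 it had 127, or 5.72 CPM (4.81 to 6.81). The intervals of ALPG did not overlap, and replicate 1 was the higher library. ALPP, the placental form, had 26 and 32 reads, or 1.08 CPM (0.735 to 1.58) and 1.44 CPM (1.02 to 2.03), with overlapping intervals. ALPI (ENSG00000163295.5) had no read in replicate 1 and 1 read in replicate 2.

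Per length, ALPG stood at 5.90 and 3.58 TPM and ALPP at 0.584 and 0.800 TPM. ALPG was therefore 10.1 times ALPP in replicate 1 and 4.47 times in replicate 2, so the order of these genes held in both libraries and its size did not. ALPL was 43.8 and 74.7 times ALPG in TPM.

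These values carry an uncertainty of assignment. The coding sequences of ALPP and ALPG are identical at 97.3% of aligned positions, and ALPI matches them at 88.6% and 88.8%. Of all 31-base windows of the ALPG transcript, 37.4% also occur in ALPP. None of the ALPL-204 windows occurs in a transcript of another gene of GENCODE 29. ALPP and ALPG summed had 243 reads in replicate 1 and 159 in replicate 2, or 10.1 and 7.16 CPM, so the sum was also higher in replicate 1.

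The 3 clustered genes share an element near their starts while their levels differ, and it is shown for that comparison. Capitals mark TTTAAA, which occurs in the 250 bases before 11.3% of all RefSeq starts. In GENCODE 29 the ALPP stretch lies in the first exon of its transcript, which is drawn from further upstream, and 24 bases of the ALPI stretch do.
ALPP, chr2:232378713-232378742, plus strand: ctccctgaTTTAAAcccgggcagcctggag
ALPG, chr2:232406806-232406835, plus strand: ttccctgaTTTAAAcccaggcagcctggag
ALPI, chr2:232456117-232456146, plus strand: tcccctgaTTTAAAcccaggcagcctgcgc
Over the full 250 bases before the start, ALPP and ALPG were identical at 84.4% of aligned positions, ALPP and ALPI at 57.7%, and ALPG and ALPI at 58.5%.

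Genes that act with the phosphatases were present. All 14 genes listed for the attachment of glycosylphosphatidylinositol (GPI) anchors, by which alkaline phosphatases are held on the cell surface, and for phosphate, pyrophosphate and vitamin B6 handling were detected. The transamidase subunits that attach the anchor, PIGK, GPAA1, PIGS, PIGT and PIGU, ranged from 40.6 CPM (PIGK, replicate 1) to 134 CPM (PIGT, replicate 2). ENPP1, which makes the pyrophosphate that ALPL hydrolyses, had 98.9 and 93.7 CPM.

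AFP (ENSG00000081051.8; chromosome 4, 73431138 to 73456174, plus strand), the fetal albumin-like serum protein, had no read in either library and 0 TPM over its 7 annotated transcripts. Its neighbours of the albumin family were at or near the same floor. AFM and GC had no read, and ALB had 4 reads in replicate 1 and none in replicate 2. Among 12 yolk sac tumour markers, AFP included, only GPC3 (39.9 and 47.4 CPM), a cell surface proteoglycan, and FOXA2 (3.40 and 2.03 CPM), an endoderm factor, were detected. TTR, CER1 and FGB had no read.

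Of 15 genes listed for the albumin family and the regulation of AFP, 4 were detected. They were ZHX2, known as a repressor of AFP in liver, at 65.2 and 55.2 CPM, NR2F2 at 26.0 and 30.9 CPM, CEBPA at 20.5 and 21.1 CPM, and FOXA2. The liver factor HNF4A had 7 reads in replicate 1 and 4 reads in replicate 2. The bases before the AFP start are shown because a TATA element (capitals) stands before a gene with no read, as it does before ALPL, which was abundant. The stretch is exonic in AFP-202 of GENCODE 29.
AFP, chr4:73436180-73436209, plus strand: gcctgaaaagagTATAAAagaatttcagca

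The hCG subunits were split, with the alpha subunit detected and the beta subunits at the floor. CGA (ENSG00000135346.9; chromosome 6, 87085498 to 87095406, minus strand) had 206 reads in replicate 1, or 8.53 CPM (95% interval from 7.45 to 9.78). In replicate 2 it had 267 reads, or 12.0 CPM (10.7 to 13.6). The intervals did not overlap, and replicate 2 was the higher library. In TPM it stood at 20.6 and 29.4 (mean 25.0 ± 6.22, SD, n = 2), above 64.3% of genes at 1 TPM or more in each library, nearly all of it in CGA-204, a coding transcript of 4 exons. CGA reads were fewer than its TPM predicts by 1.63-fold in replicate 1 and 1.66-fold in replicate 2. That shortfall lies between the deposited tables of the same libraries. For the level of CGA itself, few cells with CGA transcripts and little CGA RNA per cell cannot be told apart in bulk libraries.

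CGB3 (ENSG00000104827.12; chromosome 19, 49022869 to 49024333, minus strand) had no read in either library, and 0 and 0.354 TPM. CGB5 (ENSG00000189052.7; chromosome 19, 49043884 to 49045311, plus strand) had no read in replicate 1 and 1 read in replicate 2. With CGB3 set at that limit of 3 reads per library, CGA per kilobase of their leading transcripts was 59.6-fold higher in replicate 1. In replicate 2 it was 77.3-fold higher. These ratios are not strict lower bounds, since they leave out the counting error of CGA and the Wilson interval of a count of 0 reaches above 3 reads. The beta genes are also near-identical copies among which reads can be split. The coding sequences of CGB3 and CGB5 differ at 1 of 498 positions (99.8% identity). Of the 31-base windows of CGB3, 89.6% occur in transcripts of other genes, and of those of CGB5, 92.5%.

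Salmon's TPM divides reads that copies share among them, so the beta genes were also summed. Summed over CGB1, CGB2, CGB3, CGB5, CGB7 and CGB8, TPM was 0.186 in replicate 1 and 0.920 in replicate 2, and the 6 genes had 9 and 5 reads. CGA TPM was 110 and 31.9 times that sum. In addition, 47.4% of the bases of the CGB3 transcript are also exonic in AC008687.1, a gene of the same strand, which had no read and 0 TPM.

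Of 10 further genes, comprising beta copies, other glycoprotein hormone genes and the receptor LHCGR, 0 were detected. LHB, the luteinizing hormone beta subunit that pairs with the same alpha subunit, had 19 and 9 reads. FSHB and TSHB, the beta subunits of the other pituitary hormones, had no read. CGB7 had 8 and 4 reads.

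Syncytiotrophoblast markers were mixed. Of 14, CGA included, 6 were detected. They were ERVW-1 (19.1 and 14.6 CPM) and ERVFRD-1 (4.47 and 4.32 CPM), which encode the fusogenic syncytins, PGF (11.8 and 13.5 CPM), CGA, the aromatase gene CYP19A1 (4.18 and 4.10 CPM) and HSD3B1 (2.15 and 1.04 CPM). GCM1, the factor that drives syncytial fusion, had 7 and 16 reads. The placental genes CSH1, INSL4, PSG1 and PSG3 had at most 9 reads in a library. Summed over the list, the libraries had 51.2 and 51.0 CPM, of which CGA itself held 8.53 and 12.0 CPM. The part of the other markers in the level of CGA was not tested.

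Of 15 genes listed as regulators of hCG in trophoblast, 12 were detected. TFAP2C, an activator of trophoblast genes that is also a germ cell factor, stood at 1255 and 1247 CPM. CREB1, which binds the cyclic AMP response element, had 46.5 and 44.4 CPM. GATA2 and GATA3 had 7.70 to 9.86 CPM. POU5F1, known as a repressor of both hCG subunit genes in choriocarcinoma cells, had 1891 and 1921 CPM.

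The stretch before the RefSeq start of CGA is shown because it holds the cyclic AMP response element (TGACGTCA, capitals) in tandem. It lies 115 to 144 bases before the start at 87095106. GENCODE 29 draws CGA-204, the transcript with nearly all CGA TPM, from 87095406, so the stretch lies within its first exon. The part of that longer exon in the shortfall of CGA reads was not tested.
CGA, chr6:87095221-87095250, minus strand: atTGACGTCAtggtaaaaatTGACGTCAtg
At least 2 copies of these letters occur before 19 of the 35116 RefSeq starts (0.0541%), and at least 1 copy before 1.65%. The windows of CGB3 and CGB5, which are identical at 96.0% of aligned positions, hold none.

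LDHA (ENSG00000134333.15; chromosome 11, 18394388 to 18408425, plus strand), the muscle-type subunit, was abundant in both tables. It had 10300 reads in replicate 1, or 427 CPM (95% interval from 419 to 435). In replicate 2 it had 10261, or 462 CPM (453 to 471). The intervals did not overlap, and replicate 2 was the higher library. In TPM it stood at 313 and 354 (mean 333 ± 28.8, SD, n = 2), above 96.8% of genes at 1 TPM or more in each library.

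LDHB (ENSG00000111716.14; chromosome 12, 21635342 to 21757857, minus strand), the heart-type subunit, gave opposite pictures in the deposited tables. In the gene table it had 273 reads in replicate 1, or 11.3 CPM (95% interval from 10.0 to 12.7), and 293 in replicate 2, or 13.2 CPM (11.8 to 14.8). In the transcript table it stood at 1411 and 1309 TPM (mean 1360 ± 72.4, SD, n = 2), the highest of all members and number 114 of all genes by mean TPM. The reads fell short of what its TPM predicts by 109-fold in replicate 1 and 86.9-fold in replicate 2.

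The predicted level is TPM times transcript length, summed per gene and scaled as CPM is. Of the 7432 genes at 10 TPM or more in each library, 2.29% in replicate 1 and 2.54% in replicate 2 were as far below their prediction as LDHB or had no read. The median log2 ratio of reads to prediction was 0.078 in replicate 1 and 0.081 in replicate 2. ALPL (0.064 and 0.048) and LDHA (0.050 and 0.088) lay close to that median. ALPP (-0.11 and -0.15) and ALPG (-0.13 and -0.069) were slightly below it, CGA was at -0.71 and -0.73, and LDHB was at -6.77 and -6.44.

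**Figure D2:**
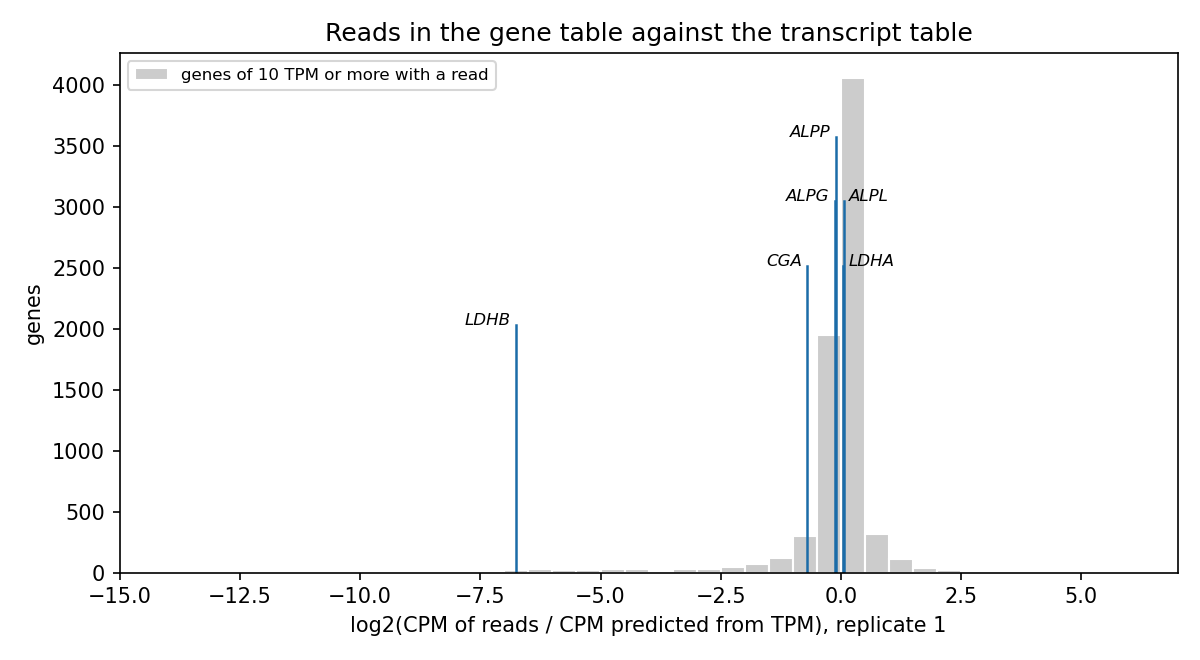
Distribution over genes at 10 TPM or more in each library, with a read in replicate 1 (grey bars), of the log2 ratio of CPM from reads to CPM predicted from TPM. Blue lines mark the detected serum marker genes, of which ALPP and ALPG are below 10 TPM and not among the bars, and LDHB stands at -6.77 while the other 5 lie between -0.71 and 0.064.

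The LDHB transcript shares most of its exons with another annotated gene. A coding transcript of 8 exons held 99.7% of LDHB TPM in both libraries, and 997 of its 1303 bases (76.5%) lie in exons of AC010197.2 (ENSG00000285854) on the same strand. That gene runs from 21536203 to 21657798 on chromosome 12. It had no read in either library and 0.249 and 0.360 TPM. Of the leading transcripts of the other members only that of CGB3 overlapped exons of another gene on its strand. How the authors' counting treated reads that fall in 2 genes is not given in the sources used here, and its part in the low LDHB count was not tested.

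The balance of the isoenzyme subunits therefore rested on the table. By TPM, LDHA made up 18.2% of LDHA plus LDHB in replicate 1 and 21.3% in replicate 2 (mean 19.7% ± 2.21, SD, n = 2), and LDHB was 4.51 and 3.70 times LDHA. By reads per kilobase of merged exons, LDHA made up 94.8% and 94.4%. The tables placed the subunits in opposite order in both libraries. The 13 pseudogenes of LDHA, LDHB and LDHAL6 had 0 reads in replicate 1 and 1 in replicate 2, although 24.4% of the 31-base windows of LDHA-203 occur in transcripts of other genes.

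LDHA TPM fell on transcripts from 2 annotated start regions, in shares that differed between the libraries. The 16 transcripts with 5′ ends between 18394388 and 18394704 held 64.7% of LDHA TPM in replicate 1 and 52.4% in replicate 2. The 3 transcripts starting between 18396278 and 18396818 held 35.2% and 47.5%, all of it in LDHA-203. The leading transcript was LDHA-205 in replicate 1 (130 TPM, against 79.5 TPM in replicate 2) and LDHA-203 in replicate 2 (168 TPM, against 110 TPM in replicate 1). LDHA-206 had 50.6 and 79.7 TPM, which in replicate 2 was level with LDHA-205. The depth behind a transcript's TPM is unknown, so these shares have no interval and no test.

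**Figure D3:**
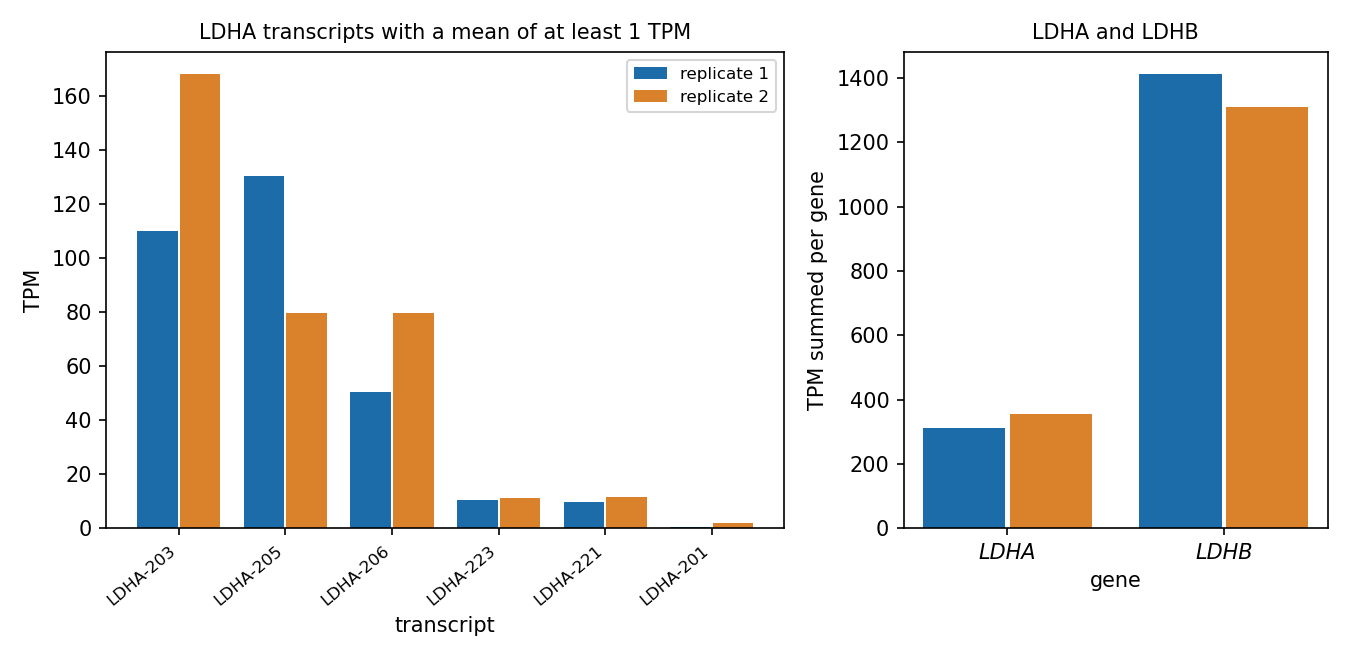
Left, TPM of the LDHA transcripts with a mean of at least 1 TPM in replicate 1 (blue) and replicate 2 (orange); right, TPM summed per gene for LDHA and LDHB. LDHA-205 leads in replicate 1 and LDHA-203 in replicate 2, and LDHB stands at 1411 and 1309 TPM against LDHA at 313 and 354 TPM.

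A stretch from before each RefSeq start of LDHA is shown because TPM fell on transcripts of both regions and the sequences differ in kind. The first lies before the start at 18394563 and holds a single TGACGTCA. The second lies before the start at 18396351 and holds a GC box, GGGCGG, which on either strand occurs before 42.6% of RefSeq starts. GENCODE 29 draws LDHA-205 and LDHA-203 from further upstream than RefSeq, so the first stretch and 8 bases of the second are exonic in them.
LDHA, first start, chr11:18394501-18394530, plus strand: gccccccccgcTGACGTCAgcatagctgtt
LDHA, second start, chr11:18396256-18396285, plus strand: tcttccggacttGGGCGGggcgtaaaagcc
The window of the first start held ACGTG, the core of the hypoxia response element, 5 times over both strands and no GC box. The window of the second held 4 GC boxes and no ACGTG, and ACGTG occurs before 18.5% of RefSeq starts.

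Genes around lactate were largely detected. Of 14 genes for the transport and use of lactate and pyruvate, 13 were detected, from PDK4 (1.86 and 1.98 CPM), an inhibitory kinase of pyruvate dehydrogenase, to BSG (1636 and 1572 CPM), the chaperone of the lactate transporters. The transporter SLC16A1 had 171 and 174 CPM and SLC16A3 had 82.0 and 78.0 CPM. PKM, which makes the pyruvate that LDHA reduces, had 1063 and 1055 CPM. All 8 genes listed as regulators of LDHA or LDHB were detected. HIF1A had 226 and 234 CPM, and MYC had 24.2 and 21.9 CPM. Of 5 other genes listed as lactate dehydrogenases or related to them, UEVLD alone was detected, at 24.1 and 24.4 CPM. LDHC, LDHD, LDHAL6A and LDHAL6B were not detected, and the testis-specific LDHC had 4 and 6 reads.

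The replicates were compared gene by gene with edgeR's exact binomial test on reads, adjusted by the Benjamini-Hochberg method over all 15299 genes tested. Such a test sets the difference between 2 libraries against counting noise and compares no conditions. Of the 6 members tested, 3 were called, 2 higher and 1 lower in replicate 2. The background was high: 13.1% of all genes tested were called, 6.78% higher and 6.35% lower. The median log2 difference of CPM + 1, replicate 2 minus replicate 1, was 0.16 over the 6 members and -0.0074 over all genes tested.

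ALPG was lower in replicate 2, at 0.640 times its level in replicate 1 (95% exact interval, 0.510 to 0.800; edgeR exact binomial test, adjusted p = 0.00115). Its log2 difference was -0.57, and 0.885% of the 13898 genes averaging 1 CPM or more differed by as much in either direction. CGA was 1.42 times as high in replicate 2 (1.18 to 1.71; edgeR exact binomial test, adjusted p = 0.00302). Its log2 difference was 0.45, a size reached by 2.52% of genes. TPM gave both differences the same direction, at -0.59 for ALPG and 0.49 for CGA.

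LDHA was 1.09 times as high in replicate 2 (1.06 to 1.12; edgeR's binomial test, adjusted p = 5.43e-08). It passed the test although it was small beside the spread over genes, 43.3% of which had a log2 difference at least as large as its 0.12. ALPL differed by 1.02 times (0.995 to 1.05; edgeR's binomial test, adjusted p = 0.348), and counting error bounds its difference at 1.05-fold. ALPP (1.35 times, 0.777 to 2.35; edgeR exact binomial test, adjusted p = 0.579) was too shallow for a difference of the size seen to be detectable. LDHB was at 1.17 times (0.992 to 1.39; edgeR exact binomial test, adjusted p = 0.228) by its few reads and had a log2 difference of -0.11 by TPM.

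**Figure D4:**
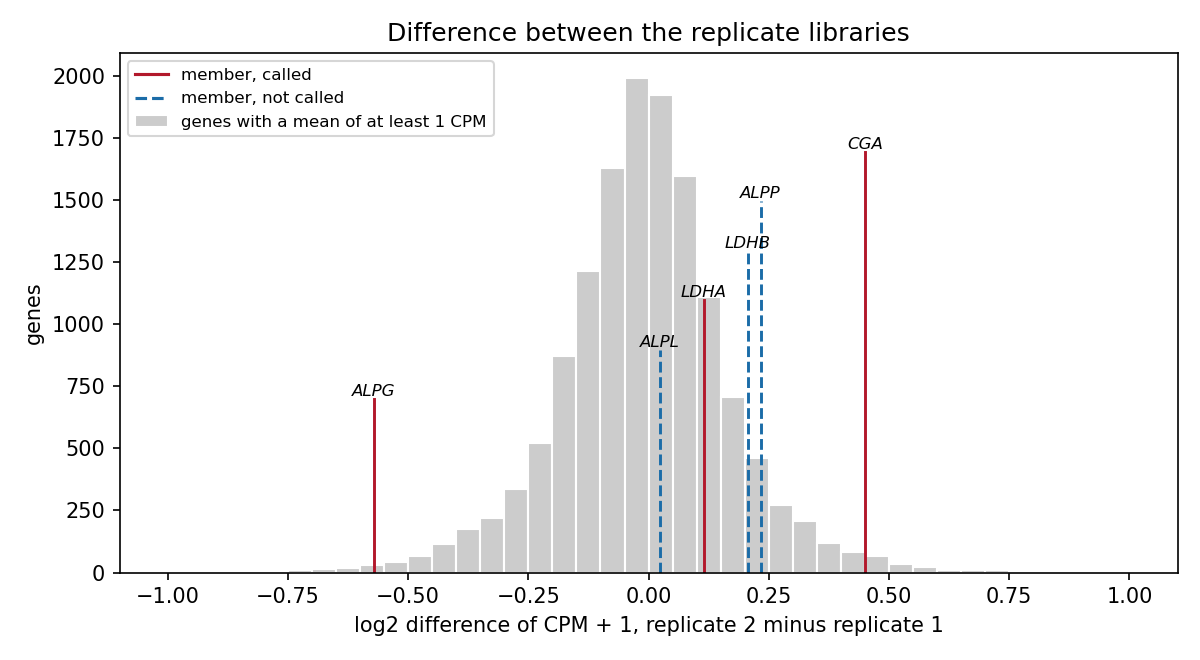
Distribution of the log2 difference of CPM + 1, replicate 2 minus replicate 1, for all genes averaging 1 CPM or more (grey bars), with lines for the 6 detected serum marker genes (solid red where called beyond counting noise, dashed blue where not). ALPG at -0.57 and CGA at 0.45 stand in the tails, and ALPL at 0.023 lies at the centre.

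Some markers of seminoma and of other cell types were also called between the libraries, beside 13.1% of all genes tested. In the syncytiotrophoblast list the tested members called were CGA, higher in replicate 2, and ERVW-1 and HSD3B1, lower in it. In the yolk sac list GPC3 was called higher and FOXA2 lower in replicate 2. Of the fibroblast and endothelium markers LUM (9.28 and 13.1 CPM) and VWF (3.98 and 5.86 CPM) were called higher in replicate 2, and the list of 5 summed to 22.6 and 30.5 CPM, with DCN at 1 read in each library. Of the 5 embryonal carcinoma markers 3 were detected, and DNMT3B (124 and 98.4 CPM) and TNFRSF8 (2.44 and 1.31 CPM) were called lower in replicate 2. TDGF1, the highest of the list (127 and 120 CPM), and SOX2 (24 reads in each library) were tested and not called. The list summed to 255 and 221 CPM. Of the 6 testis somatic markers AMH and SOX9 were detected, and SOX9 (7.79 and 4.68 CPM) was called lower in replicate 2. That list summed to 14.4 and 10.7 CPM. Of the 9 seminoma markers, POU5F1 and PDPN were called higher, with log2 differences of only 0.023 and 0.049. LIN28A, SALL4 and PRDM1 were called lower, at -0.12, -0.16 and -0.19. With as many reads as POU5F1 had (45651 and 42646), a small difference passes the test. The part of these genes in the differences of ALPG and CGA was not tested.

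In the related lists, calls lay on both sides of the background of 13.1% of genes tested. Of the 14 genes for GPI anchors and phosphatase partners, 4 were called higher in replicate 2 (PIGT, PIGS, SLC20A1 and PGAP1), and PDXK was among those called lower. The median log2 difference of the list was 0.042. SLC20A1, a phosphate importer, had 51.7 and 65.0 CPM. Of 12 tested regulators of hCG, 2 were called higher (MSX2 and POU5F1) and 1 lower (EP300), with a median of -0.043. MSX2, a homeobox gene, had 91.9 and 118 CPM, and EP300, a histone acetyltransferase, had 82.8 and 68.2 CPM. Of 13 tested genes of lactate and pyruvate, BSG alone was called, lower in replicate 2, and of 8 regulators of LDHA and LDHB, VHL alone, also lower. Of 5 tested genes of the albumin family and AFP regulation, NR2F2 was called higher and ZHX2 and FOXA2 lower. GPHA2, of the glycoprotein hormone list, and UEVLD and LDHD, of the other lactate dehydrogenases, were the tested genes of those lists and were not called (edgeR exact binomial test, adjusted p from 0.735 to 0.957).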

How the data were processed

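Polyadenylated RNA of 2 libraries, the replicates of 1 group, was analysed. Per the submitters' processing notes the authors used Trim Galore 0.6.10, STAR 2.7.11a, Salmon 1.10.2 and DESeq2 with GRCh38. The read counter and annotation are not given in the sources used here. The deposited gene table holds a signal: reads divided by 1 factor per library. All values were whole multiples (tolerance 1e-06) of 1 step, 1.02 (replicate 1) or 1.12 (replicate 2), so whole reads were recovered (100% of values) and expressed as CPM. The deposited TPM per transcript were made by the authors with Salmon and summed per gene through GENCODE 29, which held 201667 of 251955 transcripts and 94.8% of TPM. Newer transcripts are left out. In both tables the header names no identifier column, so the first value column took the first name given, and 0 value columns went unused. Differences between libraries were tested with edgeR 4.0.16 (binomTest, TMM, filterByExpr; two-sided; for large counts it approximates by chi-square, and scipy 1.17.1 gave an exact p of 9.59e-10 for LDHA and 0.115 for ALPL). The threshold was an adjusted p of 0.05, and the log2 pseudocount was 1 CPM, which understates differences of low genes. The test was checked on simulated data with counting noise, in which some genes were given a known fold change. That check does not cover spread between replicates beyond counting noise. DESeq2 1.42.0 size factors served as an alternative. Promoters are RefSeq's (GRCh38.p14), in 13 windows for the 10 members. Named were all members and, of the lists, detected genes, genes without a read and the highest and lowest marker. Genes with few reads are named outside that rule, after their values were seen. Values of some listed genes are not reported here. Members and lists were chosen with earlier results of these data known. Likeness to other genes was not computed, since 2 samples of 1 group give no pattern.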

Additional observations from a re-analysis of the deposited data

How the results depend on the processing

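No paired analysis was possible because both libraries belong to 1 group. The share of LDHA among LDHA and LDHB, 19.7% by TPM, was 94.6% by reads per kilobase of merged exons and 97.3% by reads, and the cause was not tested. With either library left out it was 18.2% to 21.3%. The share of ALPL among the phosphatase genes was 97.6% to 98.4% with either library left out and kept within 1 SD under the other measures. The count of detected members was 6 at 0.1 CPM and with either library left out, and 5 at 5 CPM and with TPM. ALPG, CGA and LDHA were the members called with total reads, with DESeq2 size factors and with all genes with a read tested, where 6.47% of 26504 genes were called. Depth limits ALPP and the genes at the floor. The transcript shares have no known depth.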
